A study of Mus musculus with 12 samples.

Results

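Collagen chain genes outside the cartilage set were followed in cultured mouse fibroblast-like synoviocytes, which are the matrix-forming cells of the synovium that lines a joint, across homeostasis, inflammation and resolution. A row of the deposited read count table was a member when its gene symbol was Col, a number, a and a number with nothing else, and when it was none of Col2a1, Col9a1, Col9a2, Col9a3, Col11a1 and Col11a2, the 6 chains of the collagens typical of cartilage. The rule used names alone and no measured value, and it found 38 of the 36875 gene symbols in the table. By the form of the protein they fell into 8 fibrillar, 9 network, 6 beaded and 6 FACIT chains (fibril-associated collagens with interrupted triple helices), 1 anchoring fibril chain, 4 transmembrane chains, 2 multiplexins and 2 others.

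The series holds 12 libraries of poly(A) RNA in 3 groups of 4. The homeostasis group came from animals that drank 5% sucrose water for 3 weeks, and its descriptions read WT. The inflammation group (DOX ON) drank 1 mg/ml doxycycline dissolved in that water over 3 weeks. The resolution group (DOX OFF) had the same course, which was then stopped. The protocol names arthritis driven by tumour necrosis factor (TNF) for the mice as a whole, so the labels leave unclear whether the WT animals carried the same alleles as the others. The sources used here do not give the transgene, its promoter, the sex and age of the animals, the time from withdrawal to harvest or the passage of the cultures. Whether each library stands for its own animal or culture is not stated in the labels. The p-values therefore set differences between groups against the spread of these samples alone, and that spread may be technical.

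Collagens are secreted as 3 alpha chains wound into a triple helix, and the chains of 1 molecule may come from 1 gene or from several. Fibrillar collagens such as types I, III and V build the banded fibrils of connective tissue, type IV builds the sheets of basement membranes, type VIII builds hexagonal networks, type VI assembles into beaded microfilaments, and FACIT collagens sit on the surface of fibrils. Synovial fibroblasts are a main source of this matrix in the joint, and the remodelling of it is a known feature of arthritis.

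The abundant fibrillar chains of types I, III and V, apart from Col5a3, did not pass the test in inflammation and fell in resolution, with Col1a1 2.61-fold lower in resolution than in inflammation. The type VI genes Col6a1, Col6a2 and Col6a3 fell from homeostasis to inflammation and again from inflammation to resolution. Col8a1 and Col23a1 rose, and each stayed above homeostasis in resolution. Col24a1 rose in inflammation and in resolution against homeostasis, but resolution 1 overlapped homeostasis. Against homeostasis 1 and 2 alone its rise in resolution did not pass (adjusted p = 0.0543). Col7a1 rose in inflammation and fell from inflammation to resolution, and the fall was lost without any 1 of several libraries. All levels are counts scaled to library size (CPM) by the trimmed mean of M-values, given as mean ± SD with n = 4. Differences are log2 fold changes with their standard error (SE) from the quasi-likelihood test of edgeR over all 15049 genes tested, with Benjamini-Hochberg adjusted p and a threshold of 0.05. Genes that passed are said to have risen or fallen.

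Total counts per library ran from 18120745 to 34971537, so that a count of 0 allows a level of up to 0.086 to 0.166 CPM. Homeostasis 1 and 2 stood apart from homeostasis 3 and 4 for some members, Col6a3 among them, and the comparisons with homeostasis were therefore also made against each pair. Ddx3y, a gene of the Y chromosome, stood at 22.2 to 26.2 CPM in homeostasis and at 0 to 0.137 CPM in inflammation, and it had no count in resolution. Xist, which is expressed from an inactive X chromosome, was at 6.74 to 13.5, 71.5 to 154 and 123 to 268 CPM in the 3 groups, so differences from homeostasis cannot be told apart from those between male and female cells. Tnf, the nearest check of the labels, stood at 1.78 to 6.39, 0.573 to 1.76 and 0.136 to 0.467 CPM and was thus not higher after doxycycline, and no source used here names the TNF sequence that doxycycline drove. The summed level of 10 fibroblast markers was 12338 to 18079.6 CPM in homeostasis, 9433 to 10298 CPM in inflammation and 9066 to 9968 CPM in resolution, with none of the 10 at 0. The sum does not describe each marker, since in inflammation against homeostasis 2 rose and 5 fell. Dcn and Cd55 rose (2.60 and 2.32, adjusted p = 4.77e-08 and 3.63e-09), and Vim and Prg4 were among those that fell (-0.82 and -1.95, adjusted p = 5.71e-05 and 1.9e-05). In bulk cultures, fewer cells of a type and less RNA per cell cannot be told apart.

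Of the 38 members, 31 had enough counts to be tested. The other 7, Col6a4, Col6a5, Col19a1, Col22a1, Col13a1, Col25a1 and Col26a1, reached at most 0.928 CPM in any library. In inflammation against homeostasis 5 members rose and 9 fell, where 19.0% of all genes tested rose and 18.3% fell. In resolution against homeostasis 6 rose and 18 fell, against 27.5% and 25.8% of all genes. In resolution against inflammation 4 rose and 11 fell, against 8.52% and 7.64% of all genes. The median log2 fold change of the 31 members was -0.23, -0.50 and -0.32 in these comparisons, and that of all genes tested was -0.014, -0.0067 and 0.020. When replicate number was blocked in the 8 libraries of the latter groups, 4 members rose and 12 fell, while the counts over all genes went from 1282 and 1149 to 2605 and 2244. Groups whose libraries did not overlap were found higher for 7 members and lower for 10 in inflammation against homeostasis (18.1% and 17.3% of all genes), for 4 and 15 in resolution against homeostasis (21.9% and 21.6%), and for 2 and 10 in resolution against inflammation (8.94% and 9.91%). The 3 comparisons share their libraries in pairs and are not independent of each other.

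**Figure D1:**
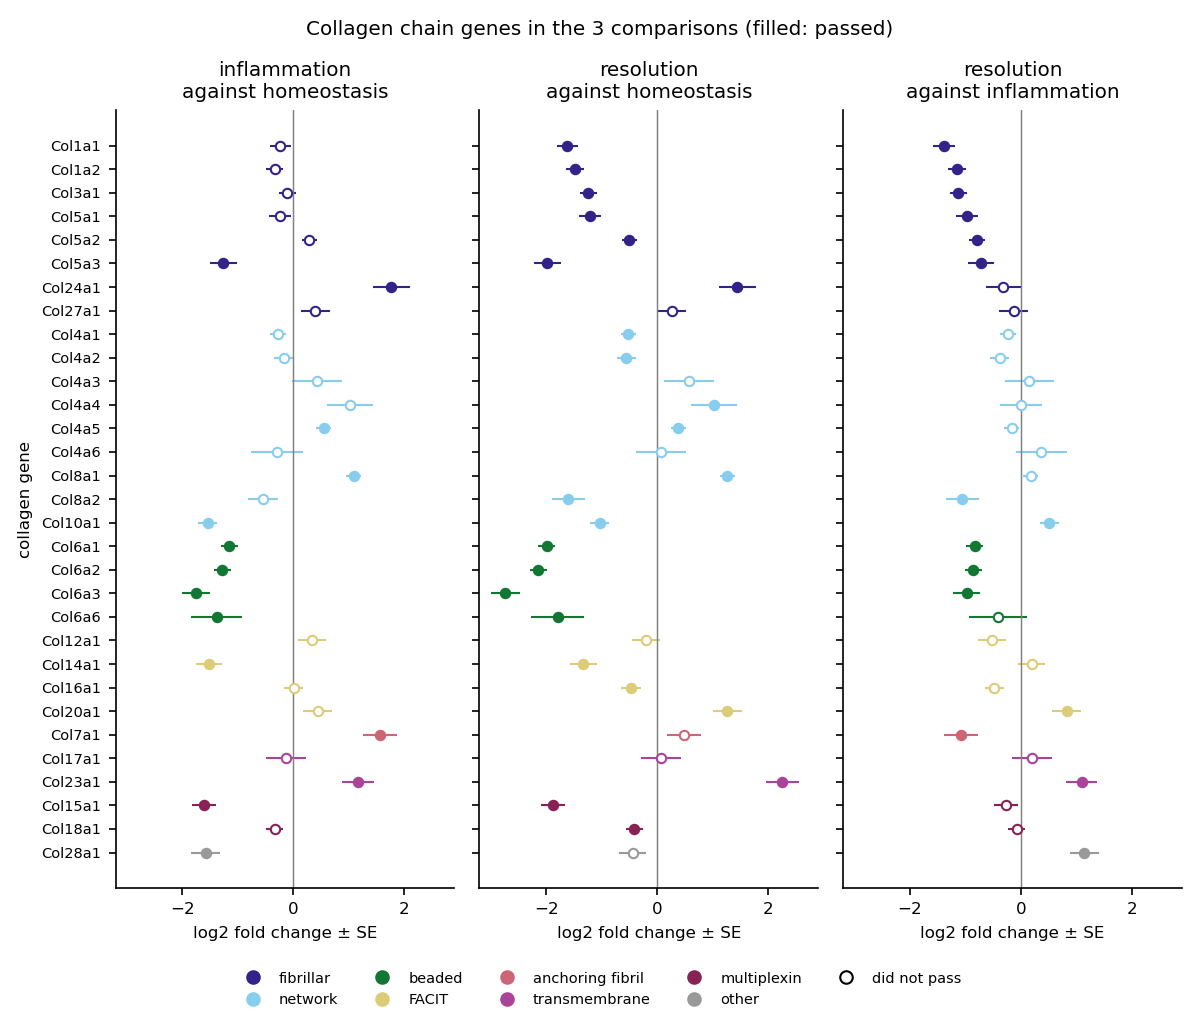
Log2 fold change of each tested collagen chain gene in the 3 comparisons, with bars of 1 SE. Colours mark the classes, filled circles passed at an adjusted p under 0.05 and open circles did not. The 4 tested type VI chains lie left of 0 in all 3 panels, while Col1a1, Col1a2, Col3a1 and Col5a1 lie near 0 in inflammation against homeostasis and between -1.62 and -0.97 in the other panels.

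Promoter windows of 5 members are printed as examples of genes with the patterns described here. Each covers 250 bases before and 50 bases after the start of a transcript, taken from RefSeq on GRCm38.p6, and the table held windows for 31 of the 38 members. Col1a2 (chr6:4505368-4505667, plus strand) is an example of the fibrillar chains that fell in resolution. Col6a1 (chr10:76725995-76726294, minus strand) is one of type VI, and Col8a1 (chr16:57754688-57754987, minus strand) one of the chains that rose. Col4a1 (chr8:11312777-11313076, minus strand) and Col4a2 (chr8:11312555-11312854, plus strand) are the head-to-head pair of basement membrane genes. Capitals mark matches on either strand to 3 motifs, the CCAAT box, the TATAAA box and the GC box, GGGCGG, and a match on the other strand appears as its reverse complement.
Col1a2: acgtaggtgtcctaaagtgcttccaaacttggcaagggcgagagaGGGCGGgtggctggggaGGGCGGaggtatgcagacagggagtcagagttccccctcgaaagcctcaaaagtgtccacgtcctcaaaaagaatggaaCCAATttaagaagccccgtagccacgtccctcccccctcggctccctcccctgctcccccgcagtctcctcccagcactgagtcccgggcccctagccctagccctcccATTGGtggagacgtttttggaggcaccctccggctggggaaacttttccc
Col6a1: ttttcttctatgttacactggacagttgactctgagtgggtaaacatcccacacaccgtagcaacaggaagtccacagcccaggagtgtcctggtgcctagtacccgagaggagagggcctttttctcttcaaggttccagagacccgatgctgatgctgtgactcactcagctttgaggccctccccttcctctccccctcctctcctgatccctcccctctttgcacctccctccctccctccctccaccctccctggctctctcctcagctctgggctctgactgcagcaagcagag
Col8a1: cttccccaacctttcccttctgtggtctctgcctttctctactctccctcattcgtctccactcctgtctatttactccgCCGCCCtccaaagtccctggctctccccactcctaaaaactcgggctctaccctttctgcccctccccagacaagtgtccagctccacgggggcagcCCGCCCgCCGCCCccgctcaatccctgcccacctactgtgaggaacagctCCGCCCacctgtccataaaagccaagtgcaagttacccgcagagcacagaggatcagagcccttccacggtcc
Col4a1: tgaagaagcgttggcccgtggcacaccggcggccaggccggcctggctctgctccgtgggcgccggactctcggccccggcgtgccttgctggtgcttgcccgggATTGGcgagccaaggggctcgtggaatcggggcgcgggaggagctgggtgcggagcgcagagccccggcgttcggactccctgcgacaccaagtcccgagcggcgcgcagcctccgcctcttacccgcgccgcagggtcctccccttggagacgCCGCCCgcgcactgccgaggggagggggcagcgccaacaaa
Col4a2: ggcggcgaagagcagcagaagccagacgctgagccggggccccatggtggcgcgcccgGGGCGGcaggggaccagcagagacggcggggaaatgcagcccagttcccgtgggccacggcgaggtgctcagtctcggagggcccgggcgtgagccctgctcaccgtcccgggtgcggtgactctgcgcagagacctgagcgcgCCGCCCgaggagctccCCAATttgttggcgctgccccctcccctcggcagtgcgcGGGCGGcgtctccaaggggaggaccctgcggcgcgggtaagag
CCAAT was found in 37.4% of the 32851 mouse windows of this length and in 11 of the 33 windows of members, TATAAA in 13.6% and in 4, and GGGCGG in 35.7% and in 20. The Col1a2 window held 2 matches to CCAAT and 2 to GGGCGG, the Col8a1 window 4 to GGGCGG, and the Col6a1 window none to any of the 3. The printed windows are not typical of their patterns. For GGGCGG the Col6a3 window also held 0 matches, but the windows of Col6a2 held 3 and 1. Those of Col6a4, Col6a5 and Col6a6 held 2, 1 and 2. The windows of Col24a1 and Col23a1, which rose as well, held 0 and 1. The Col4a1 and Col4a2 windows lie on opposite strands and share 78 bases. These matches describe the letters of the windows and were not tested for binding.

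The fibrillar class held the most abundant members. Of its 8 chains, all tested, 1 rose and 1 fell in inflammation against homeostasis, 1 rose and 6 fell in resolution against homeostasis, and 0 rose and 6 fell in resolution against inflammation. Its median log2 fold change was -0.17, -1.23 and -0.88. Over all genes tested, 19.0% rose and 18.3% fell in the first comparison, 27.5% and 25.8% in the second, and 8.52% and 7.64% in the third. All counts by class and by list are to be read beside these shares.

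Col1a1 (chromosome 11, 94936224 to 94953042, plus strand, GRCm38), which encodes the alpha 1 chain of type I collagen, the main collagen of fibrous tissue, stood at 10289, 8116, 10048 and 9787 in homeostasis, 8447, 7904, 7597 and 8651 in inflammation, and 1922, 4691, 3251 and 2609 in resolution, in CPM for libraries 1 to 4 of each group. The resolution libraries all lay below the other 8, and within resolution library 1 was lowest and library 2 highest. The change from homeostasis to inflammation did not pass (-0.23 ± 0.19 SE, adjusted p = 0.354). Col1a1 fell by 1.39 on the log2 scale from inflammation to resolution (± 0.19 SE, edgeR adjusted p = 4.39e-05). Col1a2 (chromosome 6, 4504814 to 4541544, plus strand), the alpha 2 chain of the same molecule, was at 7306, 6429, 7339.9 and 7265 in homeostasis, 5582, 5334, 5502 and 6133 in inflammation, and 1870.4, 3525, 2578 and 2178 in resolution (CPM). All inflammation libraries lay below all homeostasis libraries, but this did not pass (-0.33 ± 0.15 SE, adjusted p = 0.101), except when resolution 2 was left out of the shared fit (adjusted p = 0.0268). In resolution Col1a2 fell against both homeostasis (-1.48 ± 0.16 SE, adjusted p = 2.81e-07) and inflammation (-1.15 ± 0.16 SE, adjusted p = 3.6e-05).

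Col3a1 (chromosome 1, 45311538 to 45349706, plus strand), whose product forms type III collagen, a fibril partner of type I in soft tissue, was at 3365, 3162, 2855 and 2717 in homeostasis, 2425, 2311, 2879 and 3608 in inflammation, and 1039, 1603, 1296 and 1189 in resolution (CPM). Homeostasis and inflammation overlapped (-0.11 ± 0.16 SE, adjusted p = 0.617), and inflammation 4 was the highest of all 12 libraries. Resolution lay below both, with log2 fold changes of -1.24 against homeostasis and -1.13 against inflammation (adjusted p = 2.55e-06 and 4.75e-05). A gene on the same strand, Gm47302, overlaps exons of Col3a1, and how the authors divided such reads is not stated.

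Type V collagen sits inside type I fibrils and limits their width, and its 3 chains differed. Col5a2 (chromosome 1, 45374321 to 45503282, minus strand) was at 7102, 7162, 7679 and 6899.9 in homeostasis, 8177, 7981, 8930.4 and 10242 in inflammation, and 4049, 6239, 5475 and 4609 in resolution (CPM). The inflammation libraries all lay above homeostasis without passing (0.29 ± 0.14 SE, adjusted p = 0.101), and the resolution libraries lay below all others (-0.79 ± 0.14 SE, adjusted p = 0.000514, against inflammation). Col5a1 (chromosome 2, 27886425 to 28039514, plus strand) ranged over 2234 to 3048 in homeostasis, 2102 to 2444 in inflammation, and 710.0 to 1729 in resolution (CPM). It overlapped between homeostasis and inflammation and fell in resolution (-0.97 ± 0.19 SE, adjusted p = 0.00182, against inflammation). Exons of Col5a1 overlap 2810430I11Rik and Gm13372 on the other strand, and the strand setting of the counting is not given.

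Col5a3 (chromosome 9, 20770050 to 20815067, minus strand), the third chain of type V, did not follow Col5a1 and Col5a2 in inflammation. It was at 341, 299.8, 388 and 346 in homeostasis, 121, 110.1, 162 and 182 in inflammation, and 46.3, 138, 100 and 65.5 in resolution (CPM), with every inflammation and every resolution library below every homeostasis library. It fell in inflammation (-1.26 ± 0.24 SE, adjusted p = 0.000473) and in resolution against homeostasis (-1.98 ± 0.25 SE, adjusted p = 2.24e-06). Resolution overlapped inflammation, and that difference was close to the threshold (-0.72 ± 0.24 SE, adjusted p = 0.0471). Leaving out any 1 of 9 libraries ended this call, with adjusted p from 0.0538 (without homeostasis 3) to 0.159 (without resolution 4), and the other 7 were homeostasis 2 and 4, inflammation 1, 3 and 4, and resolution 1 and 3. A fit of the inflammation and resolution libraries alone that blocked on replicate number ended it as well (-0.82, adjusted p = 0.223), and so did reducing homeostasis to libraries 1 and 2 or 3 and 4 (0.117 and 0.0926).

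Col24a1 and Col27a1 encode minor fibrillar chains at low levels. Col24a1 (chromosome 3, 145292472 to 145552011, plus strand) was at 3.81, 2.59, 2.17 and 2.31 in homeostasis, 5.99, 5.61, 11.3 and 14.1 in inflammation, and 3.76, 9.20, 11.0 and 5.50 in resolution (CPM). All inflammation libraries lay above homeostasis, and resolution 1 overlapped homeostasis while resolution 2, 3 and 4 lay above it. Col24a1 rose in inflammation (1.76 ± 0.33 SE, adjusted p = 0.000393) and in resolution against homeostasis (1.44 ± 0.33 SE, adjusted p = 0.00128). Against homeostasis 1 and 2 alone the second of these did not pass (1.23, adjusted p = 0.0543). Col27a1 ranged over 6.46 to 9.04 in homeostasis, 8.00 to 12.6 in inflammation, and 4.84 to 13.5 in resolution (CPM) and passed in no comparison.

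**Figure D2:**
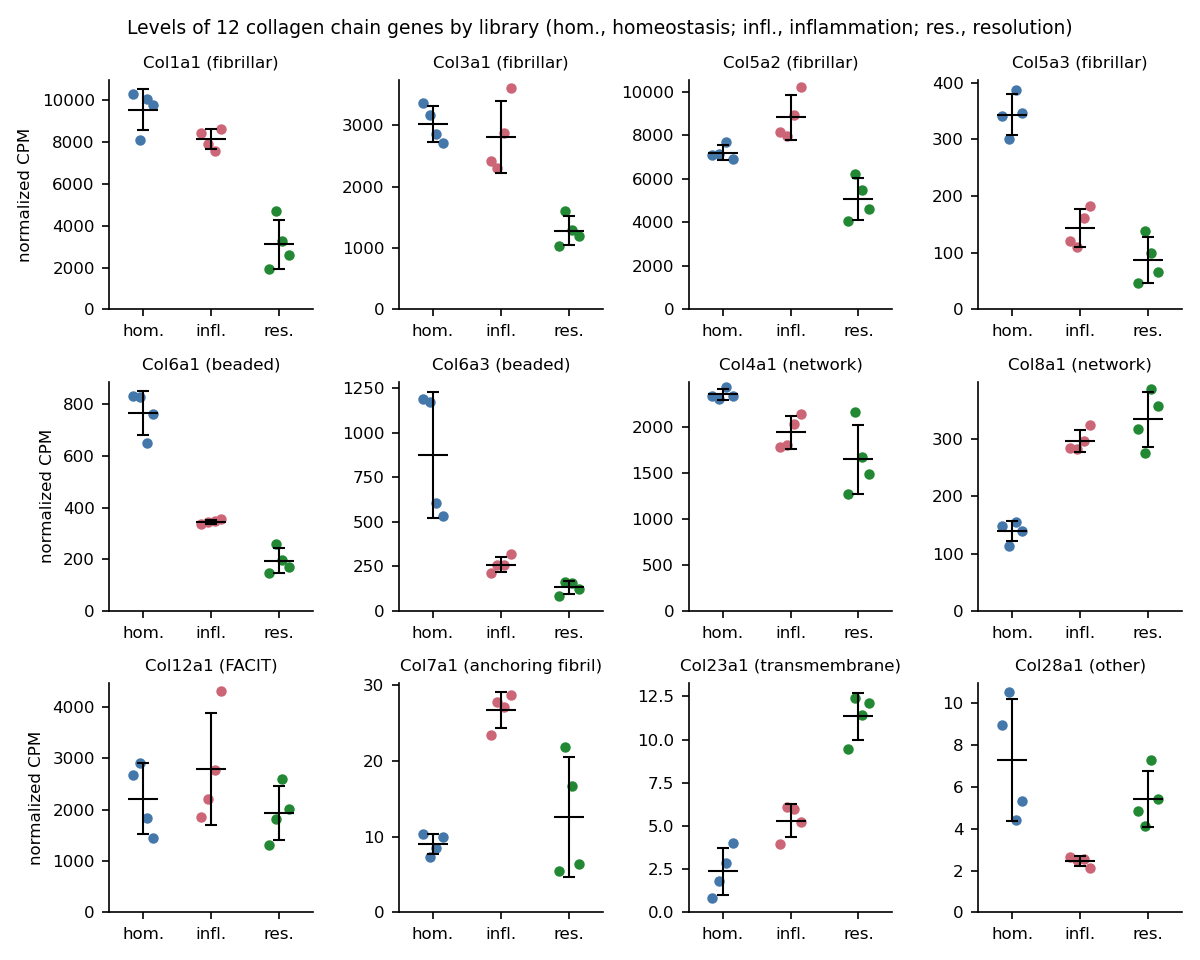
Normalized CPM of 12 collagen chain genes in each library, with points for libraries and bars for the mean and 1 SD of each group of 4. In resolution Col1a1, Col3a1 and Col5a2 sit below both other groups. Col6a1 steps down at each later group, and Col23a1 steps up from group to group.

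Per kilobase of the longest annotated transcript, Col1a1 stood at 1612 CPM per kb in homeostasis, 1374 in inflammation and 526 in resolution, Col1a2 at 1325, 1054 and 475, and Col5a2 at 1088, 1333 and 769. The mean of Col1a1 was the highest of the 3 in homeostasis and that of Col5a2 in resolution. In inflammation the SDs of Col1a1 and Col5a2 overlapped, so their order is not settled there. Col3a1 stood at 544, 504 and 230.4 CPM per kb. By their means, the order of these 4 genes was Col1a1, Col1a2, Col5a2 and Col3a1 in homeostasis, and Col5a2, Col1a1, Col1a2 and Col3a1 in resolution, where the SD of Col1a1 overlapped those of Col5a2 and Col1a2. These SDs are spreads between libraries, and the order of the genes within each library was not compared. Col3a1 and Col5a2 are neighbours on chromosome 1, 24614 bases apart and on opposite strands.

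The network class, which builds sheets and lattices, was mixed. Of its 9 chains, all tested, 2 rose and 1 fell in inflammation against homeostasis, 3 rose and 4 fell in resolution against homeostasis, and 1 rose and 1 fell in resolution against inflammation. The median log2 fold changes were -0.17, 0.070 and -0.0011. In inflammation against homeostasis 19.0% of all genes tested rose and 18.3% fell, so the network counts there lie near those of all genes.

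Col4a1 (chromosome 8, 11198423 to 11312826, minus strand) and Col4a2 (chromosome 8, 11312805 to 11449287, plus strand) encode the chains of the type IV collagen found in nearly every basement membrane, and their starts overlap by 22 bases on opposite strands. Col4a1 was at 2346, 2305, 2439.8 and 2346 in homeostasis, 1788, 1803, 2041 and 2142 in inflammation, and 1272, 2163, 1677 and 1489 in resolution (CPM). Resolution 2 stood level with the highest inflammation library, and the other resolution libraries lay lower. Col4a2 was at 1431, 1473, 1603 and 1576 in homeostasis, 1231, 1292, 1519 and 1370.1 in inflammation, and 707, 1503, 1090.0 and 844 in resolution (CPM), again with resolution 2 highest in its group. Both fell in resolution against homeostasis (Col4a1 -0.52 ± 0.14 SE, adjusted p = 0.00487, and Col4a2 -0.55 ± 0.17 SE, adjusted p = 0.0111). Neither passed in inflammation against homeostasis (adjusted p = 0.13 and 0.471) or in resolution against inflammation (adjusted p = 0.258 and 0.132). Without resolution 2 both were lower in resolution than in inflammation (Col4a1 -0.39, adjusted p = 0.0225, and Col4a2 -0.62, adjusted p = 0.00358). Col4a2 also passed there with the replicate block in those 8 libraries (-0.45, adjusted p = 0.0186), and against homeostasis 1 and 2 alone its fall in resolution did not pass (-0.49, adjusted p = 0.0676).

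The other type IV pairs were far lower. Col4a5 (chromosome X, 141475385 to 141689234, plus strand) and Col4a6 (chromosome X, 141165403 to 141474076, minus strand) lie head to head on the X chromosome, 1308 bases apart. Per kilobase, the homeostasis, inflammation and resolution means of Col4a5 were 10.4, 15.3 and 13.6 CPM, and those of Col4a6 were 0.111, 0.0906 and 0.117. Only 1 gene of this pair was thus clearly expressed. Col4a5 was at 78.0, 67.4, 66.8 and 60.4 in homeostasis, 83.0, 94.6, 95.7 and 126 in inflammation, and 80.7, 90.8, 98.4 and 85.5 in resolution (CPM), with every library of both doxycycline groups above homeostasis.

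Col4a5 rose in inflammation (0.55 ± 0.14 SE, adjusted p = 0.00423) and in resolution (0.38 ± 0.14 SE, adjusted p = 0.0255) against homeostasis, beside the difference in Xist and Ddx3y given above. The second call was lost without homeostasis 3, homeostasis 4 or resolution 3 (adjusted p = 0.0565, 0.07 and 0.0792), against homeostasis 1 and 2 alone (0.29, adjusted p = 0.157) and without an expression filter (adjusted p = 0.0564). Col4a3 and Col4a4, which with Col4a5 form the type IV network of the kidney glomerulus, and Col4a6 stayed at or below 1.40 CPM in every library. Of these, only Col4a4 passed, in resolution against homeostasis (1.02 ± 0.41 SE, adjusted p = 0.0433). That call was lost without any 1 of 8 libraries (homeostasis 1, 2 or 3, inflammation 1 or 2, resolution 1, 3 or 4), with adjusted p of up to 0.159 without resolution 4. It was also lost against homeostasis 1 and 2 or 3 and 4 alone (adjusted p = 0.081 and 0.167), in DESeq2 (0.0518) and without an expression filter (0.142). Its difference in inflammation (1.02, adjusted p = 0.0566) passed without homeostasis 4 (0.0471) or without resolution 2 (0.0496), with the GC and length offsets (0.0334) and with upper-quartile scaling (0.0435).

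The 2 chains of type VIII collagen, a short-chain collagen of hexagonal lattices, moved apart. Col8a1 (chromosome 16, 57624258 to 57754737, minus strand) was at 149, 114, 155 and 139 in homeostasis, 284, 281, 297 and 324 in inflammation, and 317, 275, 386 and 356 in resolution (CPM). Both doxycycline groups lay above homeostasis in every library and overlapped each other. Col8a1 rose 2.13-fold in inflammation (1.09 ± 0.13 SE, adjusted p = 3.81e-06) and 2.40-fold in resolution (1.26 ± 0.14 SE, adjusted p = 2.97e-07) against homeostasis. Col8a2 (chromosome 4, 126286793 to 126314330, plus strand) was at 2.44, 1.75, 2.62 and 4.35 in homeostasis, 1.83, 1.76, 1.86 and 2.17 in inflammation, and 1.03, 0.841, 0.908 and 0.878 in resolution (CPM). Homeostasis and inflammation overlapped, and all resolution libraries lay below both.

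Col8a2 fell in resolution against homeostasis (-1.60 ± 0.29 SE, adjusted p = 0.00014) and against inflammation (-1.06 ± 0.30 SE, adjusted p = 0.0209). The latter was lost without resolution 3 (adjusted p = 0.0562) or resolution 4 (0.0623). Its lower level in inflammation than in homeostasis did not pass (-0.54 ± 0.27 SE, adjusted p = 0.124), except without homeostasis 2 (-0.72, adjusted p = 0.0407) or against homeostasis 3 and 4 alone (-0.85, adjusted p = 0.0301).

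Col10a1 (chromosome 10, 34389981 to 34397085, plus strand), the short-chain collagen of hypertrophic cartilage, was at 57.5, 47.2, 44.4 and 41.3 in homeostasis, 14.99, 13.8, 14.7 and 21.9 in inflammation, and 18.3, 24.1, 25.7 and 24.9 in resolution (CPM). All homeostasis libraries lay above the other 8. It fell in inflammation (-1.54 ± 0.17 SE, adjusted p = 1.02e-06) and was also lower in resolution than in homeostasis (-1.03 ± 0.17 SE, adjusted p = 4.29e-05). The partial return from inflammation to resolution was close to the threshold (0.51 ± 0.17 SE, adjusted p = 0.0471), and leaving out any 1 of 8 libraries ended that call (homeostasis 1 or 3, inflammation 1, 2 or 3, resolution 2, 3 or 4), with adjusted p from 0.0502 to 0.156. The summed level of 15 chondrocyte markers was 935 to 1189 CPM in homeostasis, 170.2 to 256 in inflammation and 54.2 to 94.2 in resolution, and their part in the Col10a1 values was not tested. Of the 15, 8 could be tested, and of these 0 rose and 4 fell in inflammation against homeostasis. In resolution 1 rose and 5 fell against homeostasis, and 0 rose and 1 fell against inflammation. The sum thus does not describe each marker. Col2a1 alone stood at 756 to 964 CPM in homeostasis and at 2.01 to 3.20 CPM in inflammation. Col11a1 stood at 157 to 242 CPM in inflammation and at 44.0 to 79.0 CPM in resolution. Exons of Col10a1 overlap Nt5dc1 on the other strand.

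The beaded class holds the type VI collagens, which surround cells with microfilaments. Of its 6 chains, 4 could be tested. Of these, 0 rose and 4 fell in inflammation against homeostasis, 0 rose and 4 fell in resolution against homeostasis, and 0 rose and 3 fell in resolution against inflammation, where Col6a6 did not pass (-0.41 ± 0.52 SE, adjusted p = 0.611). The median log2 fold changes were -1.33, -2.06 and -0.85.

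Col6a1 (chromosome 10, 76708792 to 76726168, minus strand) was at 832, 826, 648 and 762 in homeostasis, 335, 342, 348 and 354 in inflammation, and 148, 260.4, 196 and 170.1 in resolution (CPM). The groups did not overlap, and the 4 inflammation libraries lay close together. Col6a2 (chromosome 10, 76595762 to 76623630, minus strand), whose gene lies 85161 bases from Col6a1 on the same strand, was at 621, 648, 484 and 580.2 in homeostasis, 236, 243, 236 and 245 in inflammation, and 98.1, 175, 130.0 and 127 in resolution (CPM), also without overlap. Col6a1 fell by 1.15 on the log2 scale in inflammation (± 0.15 SE, edgeR adjusted p = 7.98e-06), and Col6a2 fell by 1.28 (± 0.15 SE, adjusted p = 2.28e-06). From inflammation to resolution they changed by -0.83 ± 0.15 SE, adjusted p = 0.000762 and by -0.86 ± 0.15 SE, adjusted p = 0.000591. The 3 main chains, Col6a1, Col6a2 and Col6a3, meet in 1 molecule.

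Col6a3 (chromosome 1, 90765923 to 90843971, minus strand), the longest chain of type VI, was at 1190.4, 1172, 604 and 535 in homeostasis, 213, 256, 255 and 317 in inflammation, and 85.2, 159, 159 and 124 in resolution (CPM). Homeostasis 1 and 2 lay far above homeostasis 3 and 4, and no library of 1 group reached the range of another. Col6a3 fell against homeostasis in inflammation (-1.75 ± 0.24 SE, adjusted p = 1.7e-05) and in resolution (-2.73 ± 0.25 SE, adjusted p = 5.03e-08). Against homeostasis 1 and 2 alone the values were -2.18, adjusted p = 9.3e-08, and -3.16, adjusted p = 2.86e-10. Against homeostasis 3 and 4 alone they were -1.10, adjusted p = 0.000651, and -2.09, adjusted p = 4.17e-07. From inflammation to resolution it fell as well (-0.98 ± 0.24 SE, adjusted p = 0.0092).

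Col6a6, Col6a5 and Col6a4 encode further type VI chains that resemble Col6a3. Col6a6 (chromosome 9, 105687809 to 105828160, minus strand) was at 0.914, 1.23, 0.513 and 0.770 in homeostasis, 0.137, 0.573, 0.343 and 0.265 in inflammation, and 0.309, 0.187, 0.272 and 0.231 in resolution (CPM). Inflammation 2 reached into the homeostasis range, and the resolution libraries lay below it. It fell in inflammation (-1.38 ± 0.46 SE, adjusted p = 0.0228) and in resolution (-1.79 ± 0.48 SE, adjusted p = 0.00386) against homeostasis. The first call was lost without homeostasis 2 (adjusted p = 0.0846), inflammation 1 (0.0722) or inflammation 4 (0.0558), and against homeostasis 3 and 4 alone neither passed (adjusted p = 0.232 and 0.0658). Col6a4 and Col6a5 were not tested and ranged over 0.114 to 0.406 in homeostasis, 0.0457 to 0.309 in inflammation, and 0 to 0.499 in resolution, and over 0 to 0.215 in homeostasis, 0 to 0.221 in inflammation, and 0.0515 to 0.409 in resolution (CPM).

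The FACIT class showed no common direction. Of 6 chains, 4 could be tested, of which 0 rose and 1 fell in inflammation against homeostasis, 1 rose and 2 fell in resolution against homeostasis, and 1 rose and 0 fell in resolution against inflammation. The median log2 fold changes were 0.17, -0.33 and -0.15.

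Col12a1 (chromosome 9, 79598991 to 79718831, minus strand), the large chain of type XII collagen, was the most abundant FACIT gene, at 2669, 2913, 1829.6 and 1445 in homeostasis, 1857, 2216, 2771 and 4317 in inflammation, and 1319, 1821, 2591 and 2010.2 in resolution (CPM). The groups overlapped, with inflammation 4 highest and resolution 1 lowest, and no comparison passed (adjusted p = 0.313, 0.535 and 0.156). With the replicate block in the inflammation and resolution libraries it was lower in resolution (-0.50, adjusted p = 0.00748), and likewise with offsets for GC content and length (-0.68, adjusted p = 0.0096) and without an expression filter (-0.54, adjusted p = 0.00644). Col16a1 (chromosome 4, 130047840 to 130099283, plus strand) was at 205, 181, 241 and 210.3 in homeostasis, 212, 199, 225 and 208 in inflammation, and 105, 217, 156 and 125 in resolution (CPM). Resolution 2 lay among the other groups, and the other resolution libraries lay below them. Col16a1 fell in resolution against homeostasis (-0.47 ± 0.17 SE, adjusted p = 0.0265), a call lost without homeostasis 3, resolution 1 or resolution 4 (adjusted p = 0.0832, 0.107 and 0.0928), against homeostasis 1 and 2 alone (0.161) and with the GC and length offsets (0.125). Against inflammation it missed the threshold (-0.48 ± 0.17 SE, adjusted p = 0.0606), but passed without resolution 2 (-0.71, adjusted p = 0.00155) and with the replicate block (-0.55, adjusted p = 0.0101). It also passed in DESeq2 (adjusted p = 0.0439), with homeostasis reduced to libraries 1 and 2 or 3 and 4 (0.0479 and 0.0431), without an expression filter (0.0168) and with upper-quartile scaling (0.0464).

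Col14a1 (chromosome 15, 55307750 to 55520803, plus strand), a FACIT chain of tendon and skin fibrils, was at 18.9, 25.1, 12.6 and 12.7 in homeostasis, 4.98, 4.63, 5.29 and 9.37 in inflammation, and 7.27, 6.26, 7.40 and 6.75 in resolution (CPM). Every homeostasis library lay above the other 8, and inflammation 4 stood apart from the rest of its group. It fell in inflammation (-1.52 ± 0.24 SE, adjusted p = 6.35e-05) and in resolution (-1.33 ± 0.24 SE, adjusted p = 0.000113) against homeostasis. Col20a1 (chromosome 2, 180986535 to 181018363, plus strand) was at 2.44, 1.57, 2.45 and 1.99 in homeostasis, 2.65, 2.91, 3.04 and 2.74 in inflammation, and 2.94, 7.75, 5.13 and 4.21 in resolution (CPM), with the resolution libraries all above homeostasis and resolution 2 highest. It rose in resolution against homeostasis (1.26 ± 0.26 SE, adjusted p = 0.000492) and against inflammation (0.82 ± 0.26 SE, adjusted p = 0.0342), and the second call was lost without any of inflammation 1 to 4, resolution 2, resolution 3 or resolution 4 (adjusted p from 0.0529 to 0.103, the latter without resolution 2). Col20a1 shares exon bases with BX649560.1 on the same strand. Col19a1 ranged over 0.0906 to 0.342 in homeostasis, 0 to 0.123 in inflammation, and 0.0515 to 0.185 in resolution and Col22a1 over 0.171 to 0.457 in homeostasis, 0.366 to 0.928 in inflammation, and 0 to 0.416 in resolution (CPM), and neither was tested.

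The remaining classes were at low levels, apart from the multiplexin Col18a1. Col7a1 (chromosome 9, 108953586 to 108984875, plus strand) encodes type VII collagen, which forms the anchoring fibrils beneath epithelia. It was at 10.4, 7.36, 8.43 and 9.92 in homeostasis, 23.3, 27.7, 27.1 and 28.7 in inflammation, and 5.51, 21.8, 16.6 and 6.38 in resolution (CPM), so that all inflammation libraries lay above all others with resolution 1 and 4 below the homeostasis range and resolution 2 and 3 above it. Col7a1 rose 2.97-fold in inflammation (1.57 ± 0.31 SE, adjusted p = 0.000619) and fell again in resolution against inflammation (-1.08 ± 0.30 SE, adjusted p = 0.0212). Its level in resolution did not pass against homeostasis (0.48 ± 0.31 SE, adjusted p = 0.196), and it passed without resolution 1 (0.73, adjusted p = 0.0339) and without an expression filter (0.47, adjusted p = 0.0389).

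The fall of Col7a1 from inflammation to resolution was lost without inflammation 2, resolution 1 or resolution 4 (adjusted p = 0.0501, 0.0571 and 0.076), with homeostasis reduced to libraries 1 and 2 or 3 and 4 (0.0745 and 0.0509), and with the replicate block in the 8 libraries (-1.28, adjusted p = 0.0871). The summed level of 15 macrophage markers was also highest in inflammation, at 124 to 161 CPM in homeostasis, 680.5 to 745 in inflammation and 67.0 to 74.1 in resolution. In resolution this sum lay below homeostasis, whereas Col7a1 did not pass against homeostasis (0.48 ± 0.31 SE, adjusted p = 0.196). All 15 rose in inflammation and all 15 fell from inflammation to resolution, while 1 rose and 10 fell in resolution against homeostasis. None of the 15 was at 0 in every library, and their part in the Col7a1 values was not tested.

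Col23a1 (chromosome 11, 51289920 to 51583918, plus strand), a transmembrane collagen, was at 0.863, 1.82, 2.85 and 3.99 in homeostasis, 3.98, 6.10, 5.97 and 5.21 in inflammation, and 9.43, 12.4, 11.4 and 12.1 in resolution (CPM). The resolution libraries lay above all others, and the lowest inflammation library stood level with the highest homeostasis library. It rose in inflammation (1.17 ± 0.29 SE, adjusted p = 0.0042) and rose again from inflammation to resolution (1.09 ± 0.27 SE, adjusted p = 0.0107), which gave 4.78-fold against homeostasis (2.26 ± 0.29 SE, adjusted p = 3.13e-06). The size depended on the control libraries. Against homeostasis 1 and 2 alone the difference in resolution was 3.02, adjusted p = 4.12e-08, and against homeostasis 3 and 4 alone it was 1.74, adjusted p = 1.04e-05. In inflammation the values were 1.93, adjusted p = 2.58e-05, and 0.66, adjusted p = 0.0373. Col17a1, the hemidesmosome collagen of epithelia, was at 0.558, 1.54, 1.71 and 0.680 in homeostasis, 1.10, 1.02, 0.979 and 1.02 in inflammation, and 0.979, 1.21, 1.23 and 1.29 in resolution (CPM) and passed in no comparison. Col13a1 and Col25a1, transmembrane collagens of the neuromuscular synapse and of neurons, ranged over 0 to 0.0308 in homeostasis, 0 to 0.196 in inflammation, and 0 to 0.327 in resolution, and over 0 to 0.342 in homeostasis, 0.0442 to 0.441 in inflammation, and 0 to 0.374 in resolution (CPM).

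The multiplexins are basement membrane collagens with heparan or chondroitin sulphate chains. Col15a1 (chromosome 4, 47208161 to 47313167, plus strand) was at 32.6, 34.7, 20.6 and 23.8 in homeostasis, 9.05, 9.50, 6.27 and 11.8 in inflammation, and 5.93, 9.30, 8.44 and 6.79 in resolution (CPM), with every homeostasis library above the other 8. It fell in inflammation (-1.61 ± 0.21 SE, adjusted p = 7.38e-06) and in resolution (-1.87 ± 0.21 SE, adjusted p = 6.3e-07) against homeostasis. Exons of Col15a1 overlap Gm12426 on the other strand. Col18a1 (chromosome 10, 77052178 to 77166548, minus strand), whose C-terminal fragment is endostatin, was at 208, 195, 253 and 264 in homeostasis, 177, 169, 185 and 199 in inflammation, and 136, 238, 162 and 155 in resolution (CPM).

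Resolution 2 lay within the homeostasis range of Col18a1, and the other resolution libraries lay below it. Its fall in resolution against homeostasis (-0.41 ± 0.16 SE, adjusted p = 0.0329) was lost without homeostasis 3 or 4 or resolution 1, 3 or 4 (adjusted p from 0.081 to 0.121), against homeostasis 1 and 2 alone (0.315) and with the GC and length offsets (0.14). In inflammation against homeostasis it did not pass (-0.33 ± 0.16 SE, adjusted p = 0.103), except without resolution 2 (adjusted p = 0.0372), against homeostasis 3 and 4 alone (0.0405) or with the GC and length offsets (0.0258).

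Col28a1 (chromosome 6, 7997808 to 8192617, minus strand), known from the sheaths of peripheral nerve, was at 8.93, 10.5, 4.39 and 5.30 in homeostasis, 2.65, 2.498, 2.55 and 2.12 in inflammation, and 4.84, 4.11, 7.26 and 5.41 in resolution (CPM). All inflammation libraries lay below the other 8, and homeostasis and resolution overlapped. It fell in inflammation (-1.58 ± 0.26 SE, adjusted p = 0.000108) and rose from inflammation to resolution (1.14 ± 0.26 SE, adjusted p = 0.0061). Resolution against homeostasis did not pass (-0.44 ± 0.25 SE, adjusted p = 0.143), except without homeostasis 3 (-0.61, adjusted p = 0.0399) or against homeostasis 1 and 2 alone (-0.85, adjusted p = 0.00436).

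The summed level of 10 Schwann cell markers moved in the same order as Col28a1, with 67.2 to 81.1 CPM in homeostasis, 27.1 to 32.8 in inflammation and 42.0 to 50.3 in resolution. Of the 7 that could be tested, 0 rose and 6 fell in inflammation against homeostasis, and 4 rose and 0 fell in resolution against inflammation. In resolution against homeostasis, where Col28a1 did not pass, 1 rose and 4 fell. Sox10, the transcription factor that marks these cells, stood at 12.3 ± 1.38, 3.87 ± 0.355 and 4.32 ± 1.26 CPM. Their part in the Col28a1 values was not tested. Col26a1, the remaining member, had counts in 2 of the 12 libraries and was not tested.

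**Figure D3:**
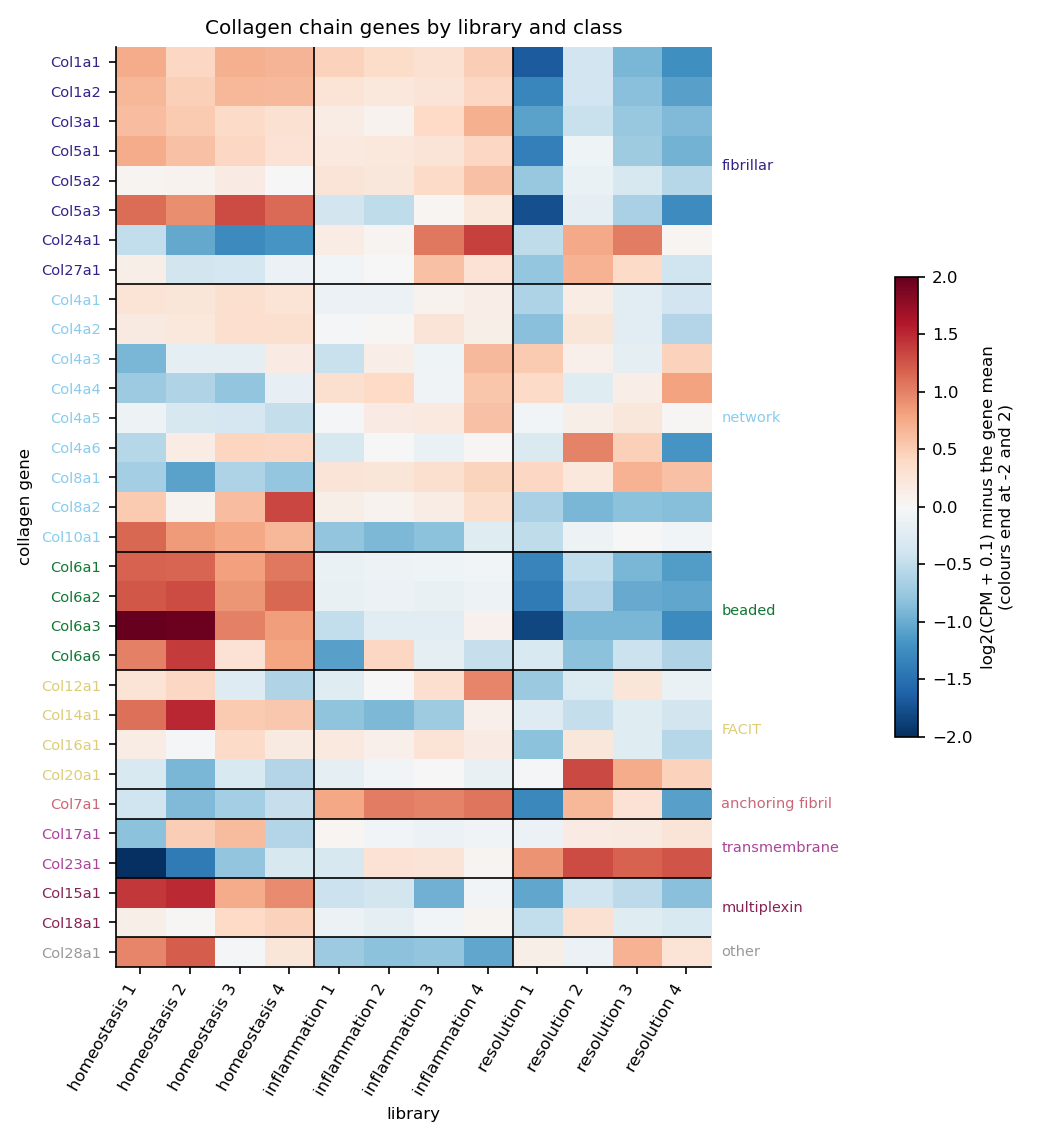
Level of each of the 31 tested collagen chain genes in each library, as log2 of CPM plus 0.1 minus the mean of the gene, with rows by class and black lines between classes and groups. Red is above and blue below the gene's mean, and colours end at -2 and 2. Resolution 1 is blue in nearly all fibrillar and beaded rows, and the inflammation columns are red for Col7a1 and blue for Col28a1.

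Single libraries took many of the extreme places. Resolution 1 was the lowest of its group for 23 of the 31 members, compared with 21.04% of all genes tested, and resolution 2 was the highest for 19, compared with 34.7%. Inflammation 4 was the highest of its group for 23 members, compared with 32.05% of all genes, and inflammation 1 the lowest for 15, compared with 27.8%. In homeostasis no library was highest for more than 10 or lowest for more than 11.

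The share of all counts that fell on collagen chain genes shows the size of the change in the pool as a whole. The 38 members held 3.72% ± 0.268 of the counts in homeostasis, 3.55% ± 0.318 in inflammation and 2.00% ± 0.455 in resolution. By library the shares were 4.09, 3.52, 3.75 and 3.52 in homeostasis, 3.37, 3.31, 3.51 and 4.01 in inflammation, and 1.496, 2.57, 2.12 and 1.82 in resolution (percent). Homeostasis and inflammation overlapped, and every resolution library lay below every other. The fibrillar class made up most of this, with 2.85% ± 0.224, 2.77% ± 0.199 and 1.38% ± 0.348 of all counts in the 3 groups.

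Within the collagen counts, the fibrillar class took 73.6 to 78.5% in homeostasis, 76.3 to 80.6% in inflammation and 67.3 to 72.0% in resolution. The network class, mostly Col4a1 and Col4a2, took 9.83 to 11.2%, 9.73 to 11.2% and 15.9 to 17.2%, so its share in resolution lay above that of every other library. The beaded class took 4.43 to 6.98%, 2.24 to 2.57% and 2.36 to 2.46%, and here homeostasis lay above both other groups, which overlapped. The FACIT class took 4.48 to 8.23%, 6.23 to 11.1% and 8.23 to 13.4%, with overlap between inflammation and each other group. The highest homeostasis library and the lowest resolution library nearly met, at 8.227% and 8.230%. A share describes the makeup of the pool, and a larger share of the network class in resolution accompanies lower levels of Col4a1 and Col4a2 there than in homeostasis.

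**Figure D4:**
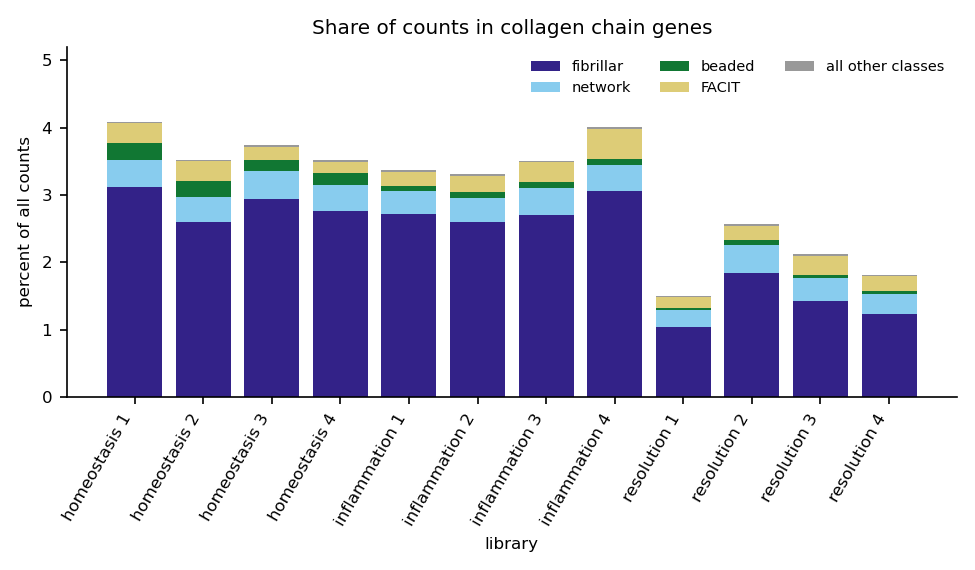
Percent of all counts of each library held by collagen chain genes, stacked by class, with the axis starting at 0. The 4 resolution libraries hold 1.496 to 2.57 percent and the 8 others 3.31 to 4.09 percent.

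Chains that meet in 1 molecule or fibril were compared as ratios within a library, which do not depend on the scaling of libraries. In all, 7 pairs were compared over 3 comparisons, as log2 ratios of CPM plus 0.1, with a two-sided exact permutation test of 4 libraries against 4. The smallest p this design allows is 0.0286, which became 0.0857 after Benjamini-Hochberg adjustment over the 21 tests, so no ratio passed at an adjusted p of 0.05. A ratio could have passed only if most of the 21 tests had reached the smallest p. The lack of a pass is thus no evidence that the ratios were the same. The ratios are of reads and not of molecules, since the chains differ in length.

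The largest differences were those of Col8a2 to Col8a1, at -5.87, -5.94, -5.83 and -4.96 in homeostasis, -7.20, -7.24, -7.24 and -7.16 in inflammation, and -8.13, -8.19, -8.58 and -8.51 in resolution (log2 ratio). No groups overlapped, and the mean differed by -1.56 in inflammation and by -2.70 in resolution against homeostasis, and by -1.14 between these groups (exact permutation p = 0.0286 each, adjusted 0.0857). The ratio of Col5a1 to Col5a2 ran from -1.66 to -1.22 in homeostasis, from -2.07 to -1.92 in inflammation and from -2.51 to -1.85 in resolution (log2 ratio). Its mean differed by -0.52 in inflammation and by -0.76 in resolution against homeostasis, again at the smallest p allowed and without overlap.

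The 2 chains of type I collagen kept a narrower ratio. Col1a1 to Col1a2 ran from 0.34 to 0.49 in homeostasis, from 0.47 to 0.60 in inflammation and from 0.039 to 0.41 in resolution (log2 ratio), where resolution lay below inflammation without overlap (difference -0.27, exact permutation p = 0.0286, adjusted 0.0857). Col6a2 to Col6a1 differed by -0.13 in inflammation against homeostasis, without overlap and at the same p. The ratios of Col3a1 to Col1a1, Col4a1 to Col4a2 and Col6a3 to Col6a1 reached this p in none of the 3 comparisons. For Col4a1 to Col4a2 the difference between resolution and homeostasis was 0.069 (exact permutation p = 0.4, adjusted 0.442), although both genes fell in that comparison.

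**Figure D5:**
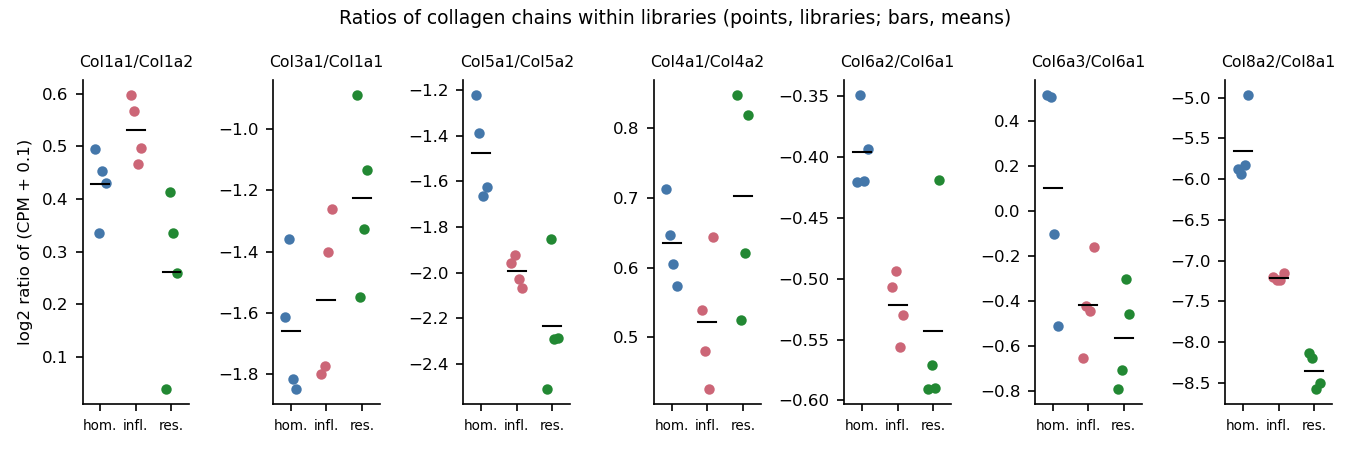
Log2 ratio of CPM plus 0.1 of 7 pairs of collagen chains in each library, with a bar at the group mean. The panels have separate vertical axes that do not start at 0. Col8a2 to Col8a1 steps down between the groups without overlap, and the groups of Col3a1 to Col1a1 overlap.

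Genes that act on collagen were described from 7 lists. Over all genes tested 19.0%, 27.5% and 8.52% rose in the 3 comparisons, and 18.3%, 25.8% and 7.64% fell. A count near these shares is not a result about its list. Of 16 tested genes for chain folding and hydroxylation, 0 rose and 7 fell in inflammation against homeostasis, 1 rose and 10 fell in resolution against homeostasis, and 1 rose and 5 fell in resolution against inflammation. Serpinh1, the collagen chaperone HSP47, went from 2232 ± 148 to 1429.9 ± 183 and 883 ± 149 CPM and fell in all 3 comparisons (-0.64, -1.34 and -0.70, with adjusted p of up to 0.00157). P4hb, the shared subunit of prolyl 4-hydroxylases, and the prolyl 3-hydroxylase P3h1 also fell in all 3 (P4hb -1.14 and P3h1 -1.11 in resolution against homeostasis, adjusted p = 5.77e-07 and 3.49e-06). Fkbp10, a prolyl isomerase that acts on procollagen, did not pass in inflammation (-0.34 ± 0.15 SE, adjusted p = 0.0716) and fell in resolution (-0.84 ± 0.15 SE, adjusted p = 0.000566, against inflammation).

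Of 7 tested genes for export and mRNA binding, 1 rose and 2 fell in inflammation against homeostasis, 2 rose and 3 fell in resolution against homeostasis, and none passed in resolution against inflammation. Sec23a, a COPII coat subunit, rose in inflammation (0.43 ± 0.14 SE, adjusted p = 0.0224), while Sec24d, another coat subunit, fell (-0.62 ± 0.14 SE, adjusted p = 0.00201), as did Creb3l1, a membrane-bound transcription factor of secretory and collagen genes (-0.73 ± 0.16 SE, adjusted p = 0.00125). Klhl12, the adaptor that enlarges COPII coats, rose in resolution against homeostasis (0.93 ± 0.21 SE, adjusted p = 0.000888). Of 7 tested genes for procollagen processing, none rose, and 1, 4 and 1 fell in the 3 comparisons. Adamts14, a procollagen N-proteinase, fell in resolution from 14.8 ± 2.16 to 5.18 ± 2.33 CPM (-1.51 ± 0.26 SE, adjusted p = 0.000407, against inflammation), and Adamts2 was lower in resolution than in homeostasis (-0.42 ± 0.13 SE, adjusted p = 0.0135). Both enhancers of C-proteinase fell in resolution against homeostasis (Pcolce2 -1.14 ± 0.14 SE, adjusted p = 1.56e-06, and Pcolce -0.55 ± 0.15 SE, adjusted p = 0.00403). In inflammation Pcolce2 fell (-1.20 ± 0.14 SE, adjusted p = 1.99e-06) and Pcolce did not pass (-0.33 ± 0.15 SE, adjusted p = 0.0849).

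Of 6 crosslinking genes, all tested, 2 rose and 1 fell in inflammation against homeostasis, 1 rose and 3 fell in resolution against homeostasis, and 0 rose and 3 fell in resolution against inflammation. Lox, the lysyl oxidase that crosslinks fibrils, rose in inflammation from 1278 ± 102 to 2187 ± 153 CPM (0.78 ± 0.13 SE, adjusted p = 0.000101) and was still higher in resolution (0.59 ± 0.13 SE, adjusted p = 0.000702, against homeostasis). Its relative Loxl4 fell in both (-1.83 and -1.59, adjusted p = 1.75e-08 and 4.45e-08), and Loxl3 fell in resolution (-0.46 ± 0.13 SE, adjusted p = 0.0191, against inflammation). Tgm2, a transglutaminase, rose in inflammation (1.36 ± 0.20 SE, adjusted p = 2.37e-05) and fell in resolution against inflammation (-0.95 ± 0.19 SE, adjusted p = 0.00241). The macrophage marker level given above was also highest in inflammation, and its part was not tested. In resolution that level lay below homeostasis, whereas Tgm2 did not pass there (0.42 ± 0.19 SE, adjusted p = 0.0783).

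Of 11 tested fibril organisers, 3 rose and 5 fell in inflammation against homeostasis, 2 rose and 5 fell in resolution against homeostasis, and 1 rose and 2 fell in resolution against inflammation. Dcn, decorin, which binds type I fibrils, rose from 161 ± 66.1 to 972 ± 132 CPM in inflammation (2.60 ± 0.23 SE, adjusted p = 4.77e-08) and stayed at 897 ± 144 CPM in resolution. Prelp, a leucine-rich repeat protein that binds collagen, rose in both (0.93 and 1.40, adjusted p = 0.000382 and 2.33e-06). Ogn, another of this family, fell in both (-1.62 and -1.17, adjusted p = 4.78e-06 and 6.81e-05). Comp, a matrix protein of cartilage and tendon, fell in inflammation (-1.98 ± 0.16 SE, adjusted p = 1.87e-08) and was higher in resolution than in inflammation (1.02 ± 0.16 SE, adjusted p = 0.000176).

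Of 11 tested collagen receptors, 3 rose and 0 fell in inflammation against homeostasis, 5 rose and 4 fell in resolution against homeostasis, and 1 rose and 2 fell in resolution against inflammation. Itga11, the alpha chain of a fibroblast receptor for fibrillar collagen, did not pass in inflammation and fell in resolution (-0.70 ± 0.14 SE, adjusted p = 0.00148, against inflammation). Its partner chain Itgb1, which is shared by many integrins, rose in resolution against homeostasis (0.81 ± 0.17 SE, adjusted p = 0.000471). Antxr1 and Antxr2, cell surface receptors that bind collagens and anthrax toxin, both rose in inflammation (0.74 and 0.65, adjusted p = 0.00215 and 0.00582) and in resolution against homeostasis (0.79 and 0.84, adjusted p = 0.000664 and 0.000441).

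Of 7 collagen-cleaving proteases, all tested, 4 rose and 1 fell in inflammation against homeostasis, 2 rose and 2 fell in resolution against homeostasis, and 1 rose and 3 fell in resolution against inflammation. Mmp13, a collagenase of fibroblasts and chondrocytes, did not pass in inflammation (-0.39 ± 0.22 SE, adjusted p = 0.171) and rose from 519 ± 165 to 1069 ± 219 CPM in resolution against inflammation (1.04 ± 0.22 SE, adjusted p = 0.00286). Mmp9, a gelatinase, and Mmp8, a collagenase known from neutrophils, fell in that comparison (-2.74 and -5.54, adjusted p = 0.00358 and 3.66e-10), as did the macrophage marker level, whose part was not tested. Ctsk, cathepsin K, rose in inflammation (0.65 ± 0.12 SE, adjusted p = 0.000414) and stayed higher in resolution (0.76 ± 0.12 SE, adjusted p = 4.29e-05, against homeostasis).

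The summed level of 6 tenocyte markers was lowest in resolution, as were the fibrillar chains of types I, III and V, at 667 to 887 CPM in homeostasis, 554 to 659 in inflammation and 325 to 479 in resolution, and its part was not tested. Of the 5 that could be tested, 1 rose and 1 fell in inflammation against homeostasis. In resolution 0 rose and 3 fell against homeostasis, and 0 rose and 3 fell against inflammation. The markers did not move together, since Fmod stood at 259 ± 30.0, 467 ± 29.7 and 263 ± 45.4 CPM in the 3 groups. Markers of skeletal muscle summed to 14.1 to 15.5, 5.57 to 6.95 and 3.54 to 5.65 CPM over 10 genes, with Myf5 at 0 in all libraries. Endothelial markers summed to 20.3 to 26.6, 9.79 to 17.5 and 14.7 to 19.2 CPM over 10 genes. Mural cell markers summed to 6084 to 7057, 6542 to 9322 and 4299.6 to 6177 CPM over 9 genes, osteoblast markers to 45.6 to 76.9, 71.3 to 82.6 and 59.2 to 86.9 over 8, and epithelial markers to 6.67 to 12.3, 6.89 to 12.4 and 3.00 to 5.51 over 7. Of 7 tested mural cell markers, 2, 2 and 0 rose in the 3 comparisons, and 1, 2 and 2 fell. Of 7 tested endothelial markers, 0, 1 and 2 rose, and 3, 3 and 0 fell. Of 4 tested osteoblast markers, 2, 2 and 0 rose, and 0, 1 and 0 fell. Of 4 tested skeletal muscle markers, 0 rose in each comparison, and 4, 4 and 2 fell. The sums thus do not describe each marker. The part of each list in the collagen values was not tested.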

How the data were processed

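RNA of cultured mouse fibroblast-like synoviocytes was measured in 12 poly(A) libraries by paired reads of 150 bases, with 6 G of raw data each, per the labels' protocols. The authors deposited 1 table of estimated counts, with a row for each gene symbol, without normalization. The build was GRCm38.p3, per the submitters' processing notes, and the sources used here do not give the aligner, counter, strand setting or annotation. Of the values deposited 1.43% were not whole (tolerance 0), as where reads are shared among genes, and counts were rounded. Of 36930 entries 13 held no value, and entries of 34 repeated symbols were summed, which left 36875.

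Genes were kept by edgeR's default expression filter (15049 genes), scaled by TMM and fitted in edgeR 4.0.16 (R 4.3.3) with the robust quasi-likelihood F test, with group as the only term over all 12 libraries. Every adjusted p of a single gene is from this test unless another setting is named, with Benjamini-Hochberg adjustment over all genes tested and a threshold of 0.05. The fit was also run on simulated counts, with 200 genes changed and all other genes at the same mean in every library. Such counts hold no libraries that stand apart from their group and no difference in Xist and Ddx3y. The run therefore does not show how the fit handles these features of the data. Ratios used a pseudocount of 0.1 CPM and exact permutation tests in scipy 1.17.1. Gene positions came from GENCODE M21 (GRCm38) and promoters from RefSeq (GRCm38.p6). The reduced chi-square between libraries of a group ran from 10.3 to 115.9, so none was counted as a repeat of another. No molecular identifiers are described, so limits from a count of 0 cover counting error only.

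The members and lists were chosen with earlier results of these data known. Values by library were given for the 4 most abundant members of each class and, in each comparison, the 4 largest rises and 4 largest falls among members that passed with at least 1 CPM, and, chosen after its values were seen, for Col8a2. From each pathway list up to 4 genes with the smallest adjusted p were named. Sox10 was likewise picked by its smallest adjusted p. The pathway lists were folding and hydroxylation, export and mRNA binding, procollagen processing, crosslinking, fibril organisers, collagen receptors and collagen-cleaving proteases. The marker lists were fibroblast, chondrocyte, macrophage, Schwann cell, skeletal muscle, endothelial, mural cell, osteoblast, tenocyte and epithelial.

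Replicate numbers come from the sample titles, which do not say what a number shares. Deviations from the group means of same-numbered libraries correlated across genes at -0.21 to 0.080 between homeostasis and inflammation, at -0.23 to -0.0028 between homeostasis and resolution, and at 0.13 to 0.21 between inflammation and resolution. All 4 pairs of the latter were over 0.1, so the block was applied to those 8 libraries, a setting added after seeing the data. Inflammation and resolution libraries with different numbers correlated at -0.25 to 0.20, so these values do not show that a number marks a shared batch. Alternatives were RLE and upper-quartile scaling, DESeq2 1.42.0, no expression filter, the replicate block, offsets for GC content and length (known for 93.9% of tested genes), each pair of homeostasis libraries as the sole controls, and each library left out.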

Additional observations from a re-analysis of the deposited data

Results flagged for a closer look

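Libraries that stood apart from their group were looked for in 117 groups of 4 values, with Dixon's test at its 95% critical value, and 5 groups were picked out. Chance picks out about 1 in 20 groups, so as many or more are to be expected without any cause.

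Col1a2 in homeostasis 2 was at 6429 CPM, below the 7265 to 7340 CPM of the other 3 homeostasis libraries. Inflammation 4 was picked out for both Col10a1, at 21.9 CPM against 13.8 to 14.99 CPM in the rest of the group, and Col14a1, at 9.37 CPM against 4.63 to 5.29 CPM. The log2 ratio of Col6a2 to Col6a1 was -0.42 in resolution 4 and -0.59 to -0.57 in the other resolution libraries. The log2 ratio of Col8a2 to Col8a1 was -4.96 in homeostasis 4 and -5.94 to -5.83 in the other homeostasis libraries.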

How the results depend on the processing

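The numbers of members that rose or fell were within 1.5 times their main value under most settings. With homeostasis 1 and 2 as the sole controls, 3 members in place of 6 rose in resolution against homeostasis. With the replicate block over all 12 libraries, 2 in place of 4 rose in resolution against inflammation. Leaving out 1 library at a time gave 5 to 6 risen and 8 to 11 fallen members in inflammation against homeostasis, 4 to 6 and 16 to 18 in resolution against homeostasis, and 2 to 4 and 8 to 14 in resolution against inflammation. In the last comparison the counts over all genes moved too, from 526 to 2359 risen and from 706 to 1805 fallen, against 1282 and 1149. The cause was not tested.

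Over all settings 1837 fold changes of members kept their direction and side of the threshold, 82 no longer passed, 33 passed newly, 32 that passed neither way changed sign and 0 that passed were reversed. Many changed calls are given beside their genes. In addition, with the block over 12 libraries Col10a1 and Col20a1 did not pass in resolution against inflammation (adjusted p = 0.0768 and 0.0646), nor Col4a4 and Col4a5 in resolution against homeostasis (0.0547 and 0.0516). With GC and length offsets Col5a2 rose in inflammation against homeostasis (0.45, adjusted p = 0.00719) and Col5a3 did not pass in resolution against inflammation (0.0871). With upper-quartile scaling Col5a2 rose in inflammation (0.0493), and Col10a1 in resolution against inflammation and Col18a1 in resolution against homeostasis did not pass (0.0688 and 0.0503). Without an expression filter Col6a6 did not pass in inflammation (0.0598). Depth limits the 7 members that were not tested, for which a level under 1 CPM cannot be compared between groups here.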
